A study of Mus musculus with 18 samples.

Results

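The endothelial transcription factor genes Sox7, Sox17, Sox18, Erg, Fli1, Ets1, Tal1, Klf2 and Mef2c were followed through 6 days of mouse heart development. The genes were chosen by name for their known roles in endothelium, with earlier results of these data known, as were the gene lists below. Their probes were found by gene symbol in the array's probe table. They are 9 of the 19057 genes that the table names with a single symbol, and they have 20 probes. Cells were sorted from enzymatically dissociated heart ventricles of Wt1GFP knock-in embryos, in which a green fluorescent protein sits in the Wt1 gene, and the brightest green fraction was kept. RNA from that fraction was put on Illumina bead arrays on each day from embryonic day 11.5 (E11.5) to E16.5, with 3 arrays for each of the 6 stages and 18 arrays in all. Every stage carries the knock-in and the same gate, and no other genotype or treatment was compared. The series describes the sorted cells as enriched for cells of the epicardium, which covers the heart. The gate follows the reporter and not an endothelial label, so the arrays give the level of each gene averaged over whatever cells the gate held. Whether a lower value reflects fewer cells of a type or less RNA per cell cannot be told apart.

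Endothelial identity is kept by a small network of DNA-binding proteins. ETS factors such as ERG, FLI1 and ETS1 bind the enhancers of nearly every endothelial gene, SOX7, SOX17 and SOX18 (the SoxF group) add arterial and lymphatic programmes, and TAL1 marks the earliest blood and endothelial progenitors. KLF2 is induced in endothelium by the drag of flowing blood, and MEF2C, which also drives muscle genes in cardiomyocytes, acts upstream of KLF2.

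Values are log2 probe intensities as the authors normalized them, and they still hold a background level, which shrinks the log2 difference of any dim gene relative to that of its RNA. A value under the background floor of 109 intensity units (6.77 on the log2 scale) is not told apart from an empty probe. Summed intensities of gene lists hold this background for each gene summed. The 10829 genes tested each had a probe that exceeded this floor on 3 or more arrays, and the brightest such probe stands for the gene. Because each probe has its own brightness, levels were compared between stages and never between genes. Within a stage Pearson's r between arrays was 0.971 or more, and it was lowest at E13.5 and E15.5. E15.5 replicate 1 and E16.5 replicate 1 stand apart from their stages by higher cardiomyocyte markers, at mean log2 intensities of 11.01 and 10.81 while the remaining arrays of both stages had 9.04 to 9.36. Nothing in the labels tells litters apart, so each p-value measures only how these samples spread, and that spread may be technical. Wt1 itself was not analysed here.

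Of the 9 genes, 8 were measured and all 8 were higher at E16.5 than at E11.5, and on each gene the 3 arrays of E16.5 lay above the 3 of E11.5. Of all genes tested 15.9% were called higher in that comparison, and for 21.3% all E16.5 arrays lay above all E11.5 arrays. Because earlier results of these data were known when the 9 genes were chosen, the contrast with all genes is no independent test. The probe filter also bears on direction. At E11.5 Sox17, Sox18 and Tal1 exceeded the background floor in 0 of 3 replicates and Sox7 in 1. These genes were tested because of their later levels, so a lower call was hardly open to them. The shares of all genes were not limited to genes this dim at E11.5. The same limit applies to other comparisons with E11.5 and to listed genes that start under the floor. The median log2 difference of the 8 genes was 2.09, against -0.03 over all genes. Calls rest on limma with Benjamini-Hochberg adjustment over all genes at an adjusted p under 0.05. The F test of the 6 stages called all 8 as well (adjusted p from 3.5e-07 to 0.00076), as it did 40.8% of all genes. The 8 rises fell in different parts of the course, and Erg stayed under the floor throughout.

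**Figure D1:**
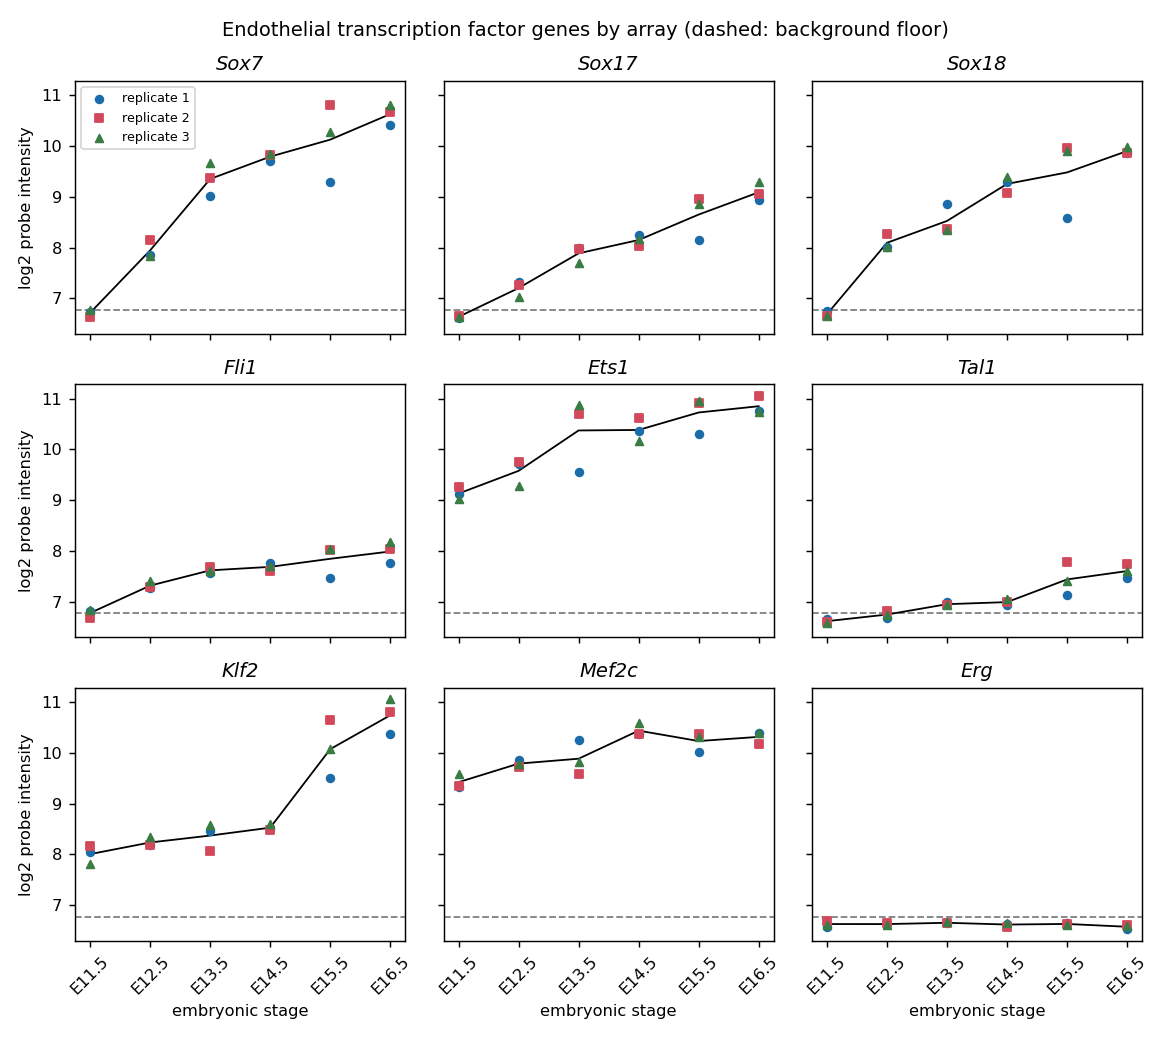
Log2 probe intensity (vertical axis) of each gene at each embryonic stage (horizontal axis), 1 point per array with a marker per replicate, the stage mean as a line and the background floor as a dashed line at 6.77. Erg is shown by 1 of its 2 probes and lies under the floor on all 18 arrays, while Sox7 goes from a mean of 6.72 at E11.5 to 10.63 at E16.5.

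The SoxF genes went from the background to well above it. Sox7, a SoxF factor of the vessel wall, had log2 intensities of 6.73, 6.63 and 6.78 on the E11.5 arrays, of which only the last lay above the floor. It reached 7.86, 8.14 and 7.84 at E12.5, then 9.03, 9.37 and 9.66 at E13.5 and 9.71, 9.83 and 9.84 at E14.5. At E15.5 it stood at 9.29, 10.82 and 10.27 and at E16.5 at 10.42, 10.68 and 10.80. Each stage up to E14.5 lay wholly above the one before, and at E15.5 replicate 1 fell below every E14.5 array. The log2 difference between E16.5 and E11.5 was 3.91 ± 0.27 (SE, limma adjusted p = 7.1e-08). The E11.5 mean of 6.72 lies under the floor, so its size is set against the background level, and it was 5.56 with normexp background correction and 2.28 with the mean of the probes. A second Sox7 probe rose by 2.65, whereas the third differed by 0.29 and never exceeded 7.24, so the probes disagree on the size.

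Sox17, the SoxF factor linked to arterial fate, had values of 6.62, 6.66 and 6.63 at E11.5, all under the floor. It then gave 7.32, 7.27 and 7.02 at E12.5, 7.99, 7.98 and 7.70 at E13.5, and 8.25, 8.03 and 8.18 at E14.5. The last stages read 8.15, 8.96 and 8.85 at E15.5 and 8.94, 9.05 and 9.28 at E16.5. No stage up to E14.5 overlapped the one before it, and replicate 1 of E15.5 lay among the E14.5 arrays. The E16.5 mean of Sox17 exceeded the floor that bounds E11.5 at least 4.99-fold (log2 difference 2.45 ± 0.17, limma adjusted p = 6.6e-08), and its second probe differed by 1.32.

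Sox18, the SoxF factor needed for lymphatic vessels, had values of 6.76, 6.65 and 6.66 at E11.5, again all under the floor. It was at 8.01, 8.26 and 8.02 at E12.5, at 8.86, 8.38 and 8.35 at E13.5, and at 9.30, 9.08 and 9.39 at E14.5. At E15.5 it read 8.58, 9.97 and 9.89, and at E16.5 9.86, 9.86 and 9.99. The first replicate of E15.5 was lower than all E14.5 arrays while the other two were higher than all of them. At E16.5 Sox18 exceeded the floor that bounds E11.5 at least 8.77-fold (log2 difference 3.21 ± 0.26, limma adjusted p = 3.5e-07).

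Of the ETS genes, Fli1 and Ets1 rose and Erg was not detected. Fli1, which with ERG keeps vessels intact, had values of 6.82, 6.68 and 6.85 at E11.5, with 2 of 3 arrays above the floor. It gave 7.27, 7.28 and 7.41 at E12.5, 7.57, 7.69 and 7.60 at E13.5, and 7.75, 7.61 and 7.70 at E14.5, then 7.47, 8.03 and 8.05 at E15.5 and 7.77, 8.03 and 8.17 at E16.5. Fli1 was clear of its E11.5 values from E12.5 on, and the E13.5 and E14.5 arrays overlapped. Its rise was 2.32-fold (log2 difference 1.21 ± 0.13, limma adjusted p = 4.7e-06). The E11.5 mean of 6.78 lies at the floor, so the size of this rise is set against the background level.

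Ets1, a factor of angiogenic endothelium that other cells of mesenchyme also use, was far above the floor from the start, at 9.12, 9.25 and 9.02. It had 9.71, 9.74 and 9.28 at E12.5, 9.55, 10.70 and 10.87 at E13.5, 10.36, 10.63 and 10.16 at E14.5, 10.30, 10.92 and 10.96 at E15.5, and 10.75, 11.05 and 10.74 at E16.5. Replicate 1 of E13.5 was the one array of that stage among the E12.5 values, and it also correlated least with its stage. The rise over the whole course was 3.29-fold (log2 difference 1.72 ± 0.28, limma adjusted p = 0.00019). The other 3 Ets1 probes lay near the floor, above it on 6, 3 and 11 of 18 arrays, and differed by 0.14, 0.22 and 0.10.

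Erg, the ETS factor that holds endothelial junctions and identity together, gave no signal. Its probes ran from 6.53 to 6.70 and from 6.49 to 6.67 over the 18 arrays, all under the floor. It was not tested in the comparisons above; with no filter the E16.5 mean of its brighter probe differed from E11.5 by -0.05 (limma adjusted p = 0.38). A probe that never leaves the background gives no bound on the gene's RNA, since whether the probes report Erg in any sample was not tested.

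Tal1, the basic helix-loop-helix factor of blood and endothelial progenitors, was above the floor on all arrays from E13.5 on. It read 6.67, 6.61 and 6.58 at E11.5 and 6.68, 6.82 and 6.74 at E12.5, with 1 of those 6 arrays above the floor. It then had 6.99, 6.93 and 6.94 at E13.5, 6.93, 6.99 and 7.06 at E14.5, 7.14, 7.78 and 7.40 at E15.5 and 7.47, 7.74 and 7.62 at E16.5. From E15.5 on its arrays were clear of all earlier ones. Between E11.5 and E16.5 Tal1 went up at least 1.78-fold (log2 difference 0.99 ± 0.11, limma adjusted p = 9.9e-06).

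Tal1 also belongs to red cell and platelet precursors, whose markers were read on the same arrays. Of 10 erythroid markers 6 were measured and 5 were higher at E16.5, against 15.9% of all genes. Their summed intensity, background included, was 642 to 1226 at E11.5 and 22241 to 34939 at E16.5. The globin genes Hbb-bs and Hbb-bt had the largest of these differences, 6.09 and 6.07. Gata1 and Klf1, the factors that define red cell precursors, were not above the floor on 3 arrays. Of 7 megakaryocyte and platelet markers 3 were measured and 1, the integrin gene Itga2b, was called, with a log2 difference of 0.21, and not without E11.5 replicate 2 (limma adjusted p = 0.063). The part of red cell RNA in the Tal1 values was not tested.

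Promoter sequence was available in the RefSeq table for Erg, Tal1, Klf2 and Mef2c, 4 of the 9 genes. The 250 bases before the start of Tal1 and Klf2 are shown because these genes had covered the smallest shares of their whole difference by E14.5 (38.1% and 19.0%), and they were searched on both strands for 5 short binding motifs. The motifs were CCGGAA for ETS, AACAAT for SOX, CCACCC for the CACCC box of KLF factors, AGATAA for GATA and, for MEF2, CTA and TAG with any 4 bases between them. Matches on either strand are in capitals. The coordinates are those of GRCm38.p6, on the plus strand, chr4:115056176-115056425 for Tal1 and chr8:72318812-72319061 for Klf2.
Tal1: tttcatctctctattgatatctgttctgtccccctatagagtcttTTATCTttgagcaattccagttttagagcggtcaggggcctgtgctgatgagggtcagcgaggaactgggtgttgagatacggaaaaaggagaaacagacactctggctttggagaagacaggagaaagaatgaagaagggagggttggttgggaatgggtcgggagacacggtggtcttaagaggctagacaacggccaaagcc
Klf2: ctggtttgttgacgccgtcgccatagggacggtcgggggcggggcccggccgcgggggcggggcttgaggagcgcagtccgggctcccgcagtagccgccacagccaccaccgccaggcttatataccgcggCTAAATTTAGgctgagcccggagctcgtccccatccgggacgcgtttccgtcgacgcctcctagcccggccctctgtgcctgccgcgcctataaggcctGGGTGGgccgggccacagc
The Tal1 window held 1 match, to GATA on the reverse strand, a motif in 9.99% of the 32851 promoter windows of this length. The Klf2 window held a MEF2 match, found in 3.2% of windows, and a reverse CACCC box, found in 28.1%. The Mef2c window held 1 CACCC box, and the Erg window matched none of the 5. ETS letters stood in 12% of all windows and SOX letters in 9.42%, and in none of these 4. A match is a stretch of letters and not a shown binding site.

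Klf2, the flow-responsive zinc finger factor, went from a mean of 8.01 at E11.5 to 8.53 at E14.5 and 10.74 at E16.5, so most of its rise came late. Its E14.5 arrays all lay above its E11.5 arrays. Its values were 8.04, 8.16 and 7.82 at E11.5, 8.18, 8.18 and 8.34 at E12.5, 8.47, 8.07 and 8.58 at E13.5 and 8.50, 8.48 and 8.59 at E14.5. They were 9.50, 10.64 and 10.08 at E15.5 and 10.36, 10.80 and 11.05 at E16.5. Every array of the last 2 stages lay above every earlier array, and the lowest of those 6 was again E15.5 replicate 1. Over the whole course the difference was 2.73 ± 0.23 on the log2 scale, of which 19.0% had been covered by E14.5.

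Klf4, a close relative that flow also induces, moved late as well. It was at mean log2 intensities of 7.31 at E11.5, 7.26 at E14.5 and 8.94 at E16.5. Klf4 was called in both late steps (log2 differences 0.80 and 0.89, limma adjusted p = 0.013 and 0.020). The first of these calls was lost without E14.5 replicate 2 or E15.5 replicate 2 or 3 (adjusted p from 0.063 to 0.082), and the second without E15.5 replicate 1 or 3 or E16.5 replicate 2 (adjusted p from 0.073 to 0.098). With only the stages compared in the fit both were lost (adjusted p = 0.079 and 0.45), and the second also with the mean of the probes (adjusted p = 0.091) and without the 2 arrays of high cardiomyocyte markers (adjusted p = 0.1). Klf2 and Klf4 are also early-response genes in cells that are dissociated. Of 10 immediate early genes 9 were measured and 7 were higher at E16.5 than at E11.5, against 15.9% of all genes. The median was 1.21, led by Atf3 at 2.18 and Junb at 1.96. The Fos call was lost in 5 alternatives (limma adjusted p up to 0.12) and the Fosb call in 4 (up to 0.079). Fos and Fosb were named after their values were seen. The mean log2 intensity of the immediate early genes was 9.56 to 9.62 at E14.5 and 9.60 on E15.5 replicate 1. It was 10.19 and 10.39 on the other E15.5 arrays and 10.28 to 10.57 at E16.5. At E13.5 it had reached 10.07 and 10.19 on 2 arrays on which Klf2 read 8.07 and 8.58. The array with the highest Klf2 of its stage also had the highest immediate early mean at E13.5 and E15.5. At the other stages it had the lowest. The part of handling after dissection in the Klf2 values was not tested.

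Mef2c reached its highest mean at E14.5 on its brightest probe. Its values were 9.32, 9.35 and 9.59 at E11.5, 9.85, 9.73 and 9.78 at E12.5 and 10.25, 9.59 and 9.82 at E13.5. They were 10.37, 10.36 and 10.58 at E14.5, 10.01, 10.36 and 10.32 at E15.5 and 10.38, 10.17 and 10.39 at E16.5. The last 3 stages overlapped each other and lay above all E11.5 arrays. E16.5 was 1.86-fold above E11.5 (log2 difference 0.89 ± 0.14, limma adjusted p = 0.00017). The other probes above the floor differed by 0.56, 0.28 and 0.65, and 1 probe was never above it. Of the 4 probes above the floor 2 had their highest mean at E16.5, at 7.35 (7.06 at E14.5) and 8.90 (8.87 at E14.5).

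Cardiomyocytes express Mef2c too, and their 13 markers, all measured, changed between arrays. Their mean log2 intensity was 8.92 to 9.27 at E11.5 and 10.64 to 10.80 at E14.5. At E15.5 it was 11.01, 9.04 and 9.31 and at E16.5 10.81, 9.36 and 9.08. The summed intensity ran from 14036 to 19299 at E11.5 and from 59734 to 65216 at E14.5. On the arrays of replicate 1 that carried the high late values Mef2c read 10.01 and 10.38, within or below the range of the other arrays of those stages. Replicate 3 at E11.5 and at E14.5, and replicate 1 at E12.5, had the highest value of both Mef2c and the marker mean. At E13.5 replicate 2 had the lowest of both. The part of cardiomyocyte RNA in the Mef2c values was not tested.

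**Figure D2:**
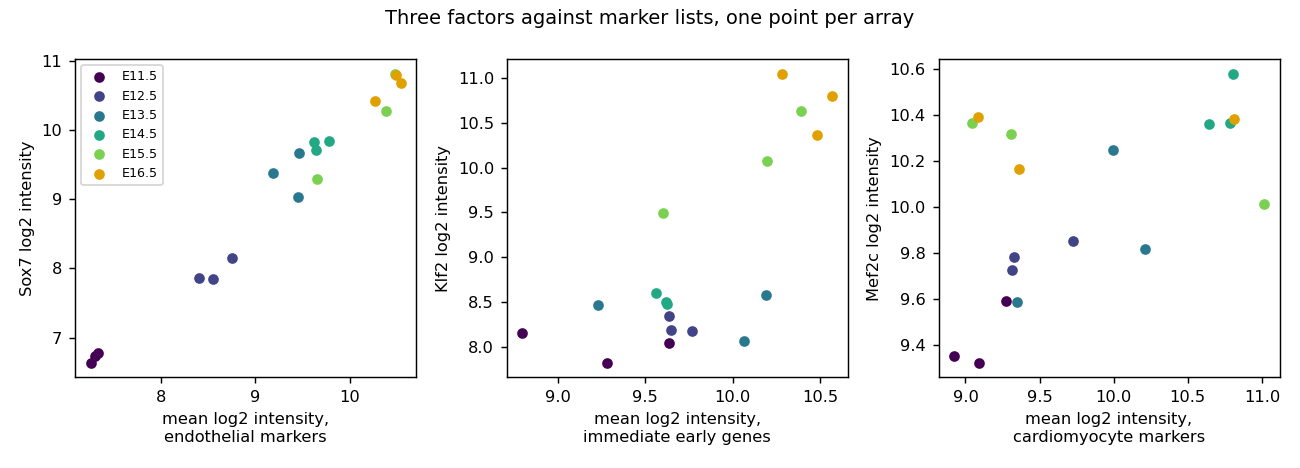
Log2 intensity of Sox7, Klf2 and Mef2c (vertical axes) against the mean log2 intensity of endothelial markers, immediate early genes and cardiomyocyte markers in that order (horizontal axes), 1 point per array coloured by stage. Sox7 follows the endothelial mean, from 7.25 to 7.34 at E11.5 up to 10.26 to 10.54 at E16.5. The array with the highest Klf2 of its stage had the highest immediate early mean at E13.5 and E15.5 and the lowest at the other stages.

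The course was then split into daily steps, which share arrays between neighbours and are given side by side. Between E11.5 and E12.5, 3 of 8 genes were called higher, against 3.28% of all genes. They were Sox18 (at least 2.51-fold, limma adjusted p = 0.0046), Sox7 (1.23 ± 0.27, adjusted p = 0.012) and Fli1 (0.54 ± 0.13, adjusted p = 0.023). Sox17 differed by 0.57 (adjusted p = 0.066), and Klf2 and Tal1 by 0.23 and 0.13. The Sox7 call was lost without replicate 2 of E11.5 or of E12.5 (adjusted p = 0.056 and 0.063) and with the mean of its probes (0.61, adjusted p = 0.078), and the Fli1 call without any array of both stages but E11.5 replicate 3 (adjusted p from 0.05 to 0.11). Sox17 was called without E15.5 replicate 1 or 2 (adjusted p = 0.0038 and 0.043), arrays of another stage that share in the estimate of the spread.

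From E12.5 to E13.5 Sox7 rose by 1.41 ± 0.27 (limma adjusted p = 0.013) and Sox17 by 0.68 ± 0.17 (adjusted p = 0.033), 2 genes of 8 against 1.68% of all genes. Ets1 differed by 0.80 (adjusted p = 0.11), and by 1.21 without E13.5 replicate 1 (adjusted p = 8e-04). Leaving out replicate 3 of either stage ended the Sox7 call (adjusted p = 0.058 and 0.064), and leaving out replicate 2 or 3 of either ended that of Sox17 (adjusted p from 0.064 to 0.14). Sox18 was called without E15.5 replicate 1 (adjusted p = 0.047).

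Between E13.5 and E14.5 only Mef2c was called (0.55 ± 0.14, limma adjusted p = 0.043), against 1.87% of all genes, and its call was lost with the mean of its probes (0.22, adjusted p = 0.18) and on leaving out any of 11 single arrays (adjusted p from 0.051 to 0.21). Sox18 differed by 0.73 (adjusted p = 0.12) and was called without E13.5 replicate 1 (adjusted p = 0.038) or E15.5 replicate 1 (adjusted p = 0.0062).

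From E14.5 to E15.5 Klf2 was the 1 gene called, with a rise of 1.55 ± 0.23 (limma adjusted p = 0.0055), against 1.5% of all genes. That call was lost when only the arrays of the 2 stages entered the fit (adjusted p = 0.077). Tal1 differed by 0.45 (adjusted p = 0.056, 0.034 with replicate number as a block, and 0.044 and 0.048 without replicate 1 of E13.5 or of E16.5). Calls of other genes in this step depended on E15.5 replicate 1. Without it 6 of 8 were called, among them Sox17 with 0.75 (adjusted p = 0.0013), Tal1 with 0.60 (adjusted p = 0.0019) and Sox18 with 0.68 (adjusted p = 0.0058). On that array the endothelial markers had a mean of 9.65, against 10.38 and 10.47 on the others of its stage. The share of 1.5% belongs to the reported fit, and the count over all genes also moved with single arrays left out, as given further below. The 6 calls are thus not set against a share of their own and are not read as particular to these genes.

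Between E15.5 and E16.5 limma called 0 of the 8 genes, against 0.305% of all genes called higher. Klf2 differed by 0.67 ± 0.23 (adjusted p = 0.32), by 0.66 with array weights (adjusted p = 0.021) and by 0.95 without E15.5 replicate 2 (adjusted p = 0.028).

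**Figure D3:**
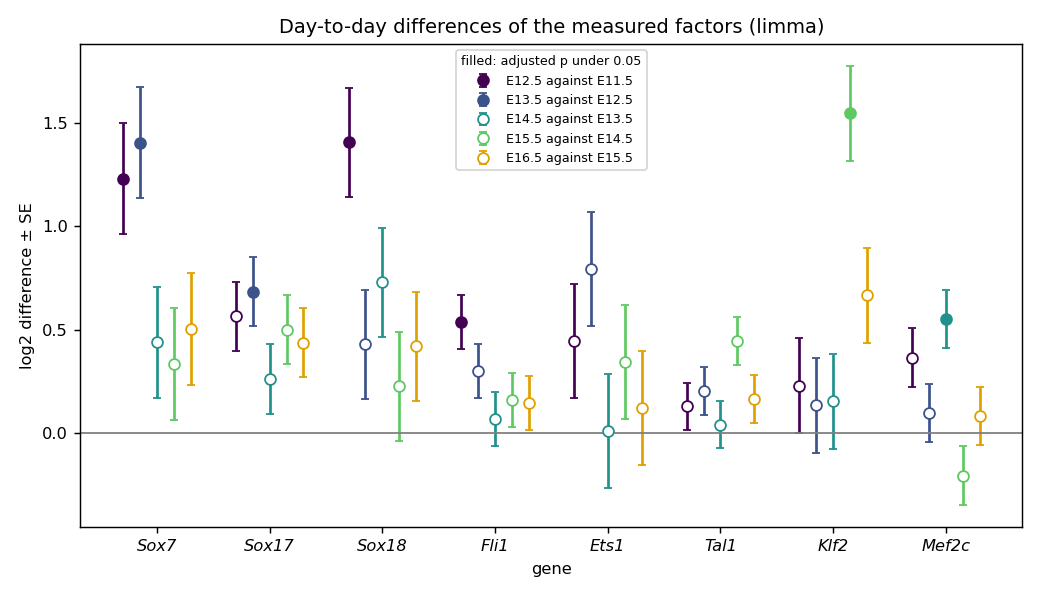
Log2 difference between neighbouring days with its SE (vertical axis) for the 8 measured genes (horizontal axis), coloured by step and filled where limma's adjusted p was under 0.05. The filled points of Sox7, Sox18 and Fli1 stand in the first step, and the highest point of the plot is the Klf2 step from E14.5 to E15.5 at 1.55.

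An early window (E13.5 against E11.5) and a late window (E16.5 against E14.5) share no arrays, and the difference between them was tested. In the early window 6 of 8 genes were called higher, against 8.57% of all genes. Sox7 rose by 2.64 ± 0.27 (limma adjusted p = 1e-05), Sox18 was at least 3.38-fold and Sox17 at least 2.17-fold higher, Ets1 rose by 1.24 ± 0.28, Fli1 by 0.84 ± 0.13 and Mef2c by 0.46 ± 0.14. The Mef2c arrays overlapped between those stages. Klf2 differed by 0.37 (adjusted p = 0.32) and Tal1 by 0.33 (adjusted p = 0.060). The Mef2c call was lost without replicate 1 or 2 of E11.5 or replicate 1 or 3 of E13.5 (adjusted p from 0.068 to 0.12), without the 2 arrays of low replicate correlation, E13.5 and E15.5 replicate 1 (0.28, adjusted p = 0.05), with no filter on dim probes (adjusted p = 0.059) and with only the stages compared (adjusted p = 0.18). The Ets1 call was lost with only the stages compared (adjusted p = 0.08), and the mean of the Ets1 probes differed by 0.33 (adjusted p = 0.012). Tal1 was called with the replicate block (adjusted p = 0.038) and without E15.5 replicate 1 or 2 (adjusted p = 0.015 and 0.0075).

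In the late window 4 of 8 were called higher, against 9.87% of all genes. Klf2 rose by 2.21 ± 0.23 (limma adjusted p = 4.8e-05), Sox17 by 0.94 (adjusted p = 0.0017), Tal1 by 0.61 (adjusted p = 0.0024) and Sox7 by 0.84 (adjusted p = 0.045). Mef2c differed by -0.12 (adjusted p = 0.63), and Fli1 and Ets1 by 0.30 and 0.47 (adjusted p = 0.13 and 0.28). The Sox7 call was lost on leaving out any of 13 single arrays (adjusted p from 0.053 to 0.15). Without E15.5 replicate 1, Sox18 and Fli1 were called too (adjusted p = 0.0019 and 0.023).

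The windows themselves differed for 3 genes. The late change exceeded the early one for Klf2 by 1.85 ± 0.32 (limma adjusted p = 0.0016), where 6.75% of all genes were called in that direction. The late change was smaller for Sox7 by -1.80 ± 0.38 (adjusted p = 0.0057) and for Sox18 by -1.19 ± 0.37 (adjusted p = 0.049), against 6.28% of all genes. The Sox7 call was lost with the mean of its probes (adjusted p = 0.062). The Sox18 call was lost on leaving out any of the 15 arrays outside E15.5 (adjusted p from 0.061 to 0.11), with cyclic loess (adjusted p = 0.053) and with the replicate block (adjusted p = 0.057), under which Fli1 was called instead (adjusted p = 0.045, from 0.071). Without single arrays other genes were called as well, Fli1 without E15.5 replicate 1 (adjusted p = 0.0079), Ets1 without E13.5 replicate 1 (adjusted p = 0.0055) and Mef2c without E13.5 replicate 2 or E15.5 replicate 1 (adjusted p = 0.020 and 0.049). Sox17 and Tal1 differed between windows by -0.31 and 0.28, neither called.

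**Figure D4:**
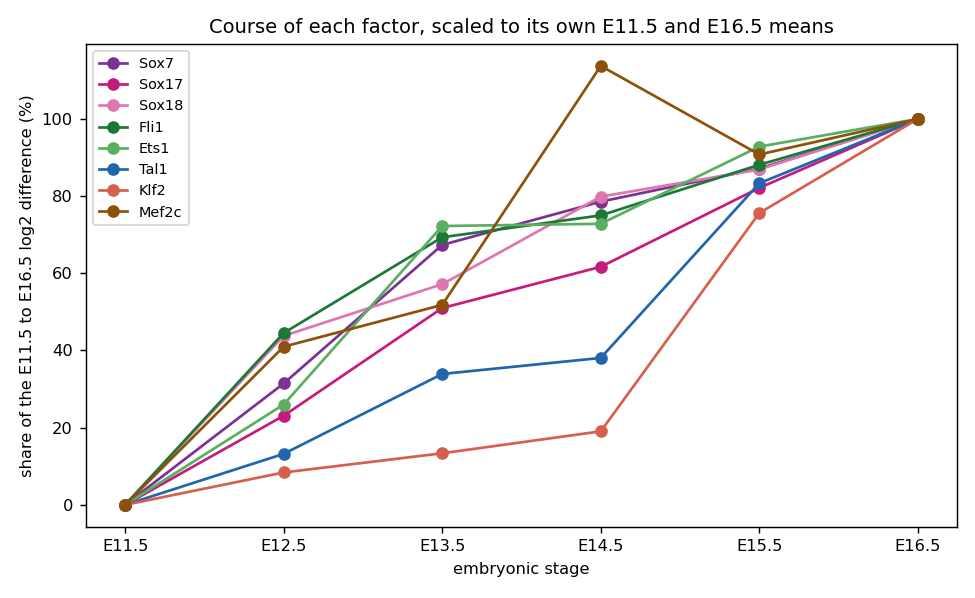
Share of each gene's own log2 difference between E11.5 and E16.5 that had been covered at each stage (vertical axis, in percent, with E11.5 at 0 and E16.5 at 100 by construction), 1 line per measured gene. At E14.5 Klf2 stood at 19.0% and Tal1 at 38.1%, while Sox7 stood at 78.6%, Sox18 at 79.9% and Mef2c at 113.7%.

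Over the 18 arrays the SoxF genes ran closely together, with Pearson's r of 0.97 for Sox7 with Sox17 and 0.96 for Sox18 with either. Sox7 with Fli1 had 0.97 and Tal1 with Klf2 0.96, and the lowest value was 0.61, for Klf2 with Mef2c. These describe 18 arrays that share stages and normalization, and genes that rise over the same days correlate on that account alone.

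Outside the 9 genes, the nearest courses to Sox7 were those of Pdgfb, a growth factor of endothelium for mural cells (r = 0.993), the endothelial cadherin Cdh5 (0.992) and Ptp4a3 (0.988). Sox17 was nearest Plpp1 (0.989), the homeobox gene Hhex (0.987) and the TGF-beta receptor Tgfbr2 (0.985). Sox18 was nearest Mmrn2 (0.992), Icam2 (0.990) and the tight junction gene Cldn5 (0.987). The nearest to Fli1 were Arap3 (0.977), Gimap1 (0.974) and Cdh5 (0.972), and to Ets1 the basement membrane genes Col4a2 and Nid1 (both 0.967) and Pecam1 (0.963).

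Tal1 was nearest Hoxa5 (0.986), Cracr2b (0.981) and Galnt18 (0.979), and Klf2 nearest Samd9l (0.989), Lims2 (0.988) and Nupr1 (0.982). Mef2c had the loosest matches, Notch1 (0.944), Upp1 (0.941) and Pgm5 (0.938). Tmem204 (0.995) and Nrros (0.992) came closest to the mean course of the 8 genes, followed by Tgfbr2 (0.991), Pdgfb (0.990) and Plpp1 (0.989).

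A list of 21 other endothelial transcriptional regulators was less uniform. Of 20 measured, 13 were higher at E16.5 than at E11.5 and 2 lower, with a median log2 difference of 0.53. Of all genes 15.9% were called higher and 18.7% lower. The ETS gene Ets2 rose by 3.50 ± 0.19 (limma adjusted p = 8e-09), and Lmo2, the partner of TAL1 in its DNA-binding complex, by 3.33 ± 0.20 (adjusted p = 1.7e-08). Bcl6b, a repressor of endothelium, rose by 2.51 ± 0.27, Hhex by 2.02 ± 0.17, Klf4 by 1.63 ± 0.15 and Gata2, which works with TAL1 and LMO2, by 1.40 ± 0.15. The E11.5 means of Bcl6b (6.70) and Gata2 (6.74) lie under the floor, so their differences are set against the background level, and alternatives reached 4.09 and 2.62. Those of Lmo2 (6.88) and Hhex (6.82) lie just above the floor, and alternatives reached 4.69 and 3.26. Foxo1 rose by 1.01 ± 0.12, and so did the Notch target Hey1, by 1.01 ± 0.31 (adjusted p = 0.018), whose call was lost when replicate 1 of E11.5 or replicate 2 or 3 of E16.5 was left out (adjusted p up to 0.060).

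The genes called lower were Foxc1 (-0.72 ± 0.09) and Nr2f2 (-0.31 ± 0.08), the latter a factor of venous and also of other mesenchymal cells. Etv2, Etv6, Foxc2, Hey2 and Prox1 were not called. These 7 were named after their values were seen.

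**Figure D5:**
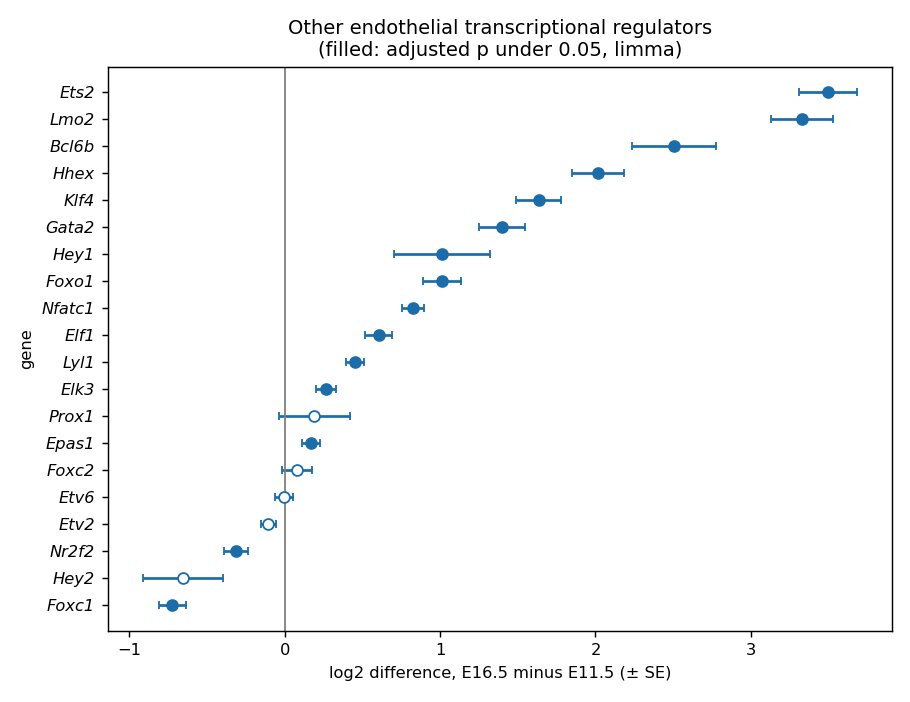
Log2 difference between E16.5 and E11.5 with its SE (horizontal axis) for 20 measured regulators of endothelium outside the 9 genes (vertical axis), filled where limma's adjusted p was under 0.05. Ets2 at 3.50 and Lmo2 at 3.33 lie farthest to the right, and Foxc1 at -0.72 farthest to the left.

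Most genes known as targets of these factors were also higher at E16.5. Of 12 such genes 11 were measured and 10 were higher at E16.5, against 15.9% of all genes. The median log2 difference was 2.75, and 7 of the 11 are also among the endothelial markers. Cldn5 had a difference of 5.50 ± 0.35 against an E11.5 mean of 6.71, under the floor, and the adhesion gene Icam2 one of 4.42 ± 0.31. Nos3, which makes nitric oxide and is a known KLF2 target, was at least 6.05-fold higher, and Thbd, the anticoagulant thrombomodulin and another KLF2 target, at least 1.72-fold. The angiopoietin receptor gene Tek, at 0.15 (limma adjusted p = 0.43), was the 1 not called. Tek and the genes under the floor at E11.5 were named after their values were seen.

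Close relatives of the 9 factors, 22 genes from the same families, did not share the direction. Of 19 measured, 6 were higher and 5 lower, with a median log2 difference of 0.03. Of all genes 15.9% were called higher and 18.7% lower. Ets2 and Klf4 led the rises, and 3 of the 19, these and Lyl1, are also among the regulators above. Sox9, of another SOX group and known from valve and cartilage progenitors, fell by 1.34 ± 0.12 on the log2 scale (limma adjusted p = 1.1e-06), and was named after its value was seen.

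Endothelial markers moved with the factors on the same arrays. Of 16 markers 15 were measured and 14 were higher at E16.5, against 15.9% of all genes, with a median log2 difference of 3.39, led by Cldn5 and Cd93. Their summed intensity ran from 3314 to 3324 at E11.5 and from 28003 to 34871 at E16.5. At E11.5, 4 markers, among them Pecam1 and Cdh5, were under the floor on all arrays, and Kdr was at no stage above it on 3. Esam, Icam2, Tek, Flt1, Egfl7, Emcn, Eng and Plvap exceeded it on all 3 E11.5 arrays. Tek had a mean of 10.09 there and Egfl7 one of 9.23. Tek, with a difference of 0.15, was the 1 marker not called. These markers were named after their values were seen. The part of a changing endothelial share in the values of the 9 factors was not tested.

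Erythroid and immediate early genes are given above with Tal1 and Klf2, and the lists of other cells follow. Between E11.5 and E16.5, 15.9% of all genes were called higher and 18.7% lower. Of 10 leukocyte markers 3 were measured and 2 were higher, Laptm5 at least 4.70-fold and Csf1r by 0.33. Their sums, background included, were 314 to 330 at E11.5, where the mean of each of the 3 lay under the floor, and 645 to 836 at E16.5. The defining Ptprc and Spi1 were not above the floor on 3 arrays. Of 9 mural cell markers 7 were measured, 2 higher and 1 lower, with Abcc9 at 1.61 and Tagln at -0.51. Of 10 epicardial markers 9 were measured, 3 higher and 4 lower, with a median log2 difference of -0.40. Msln stood at 2.54 and Dmkn at 2.33, while Tcf21 (-1.48), Upk3b (-0.95), Tbx18 (-0.94) and Lrrn4 (-0.76) were lower. The epicardial mean was 8.96 to 9.13 at E11.5, 8.10 to 8.17 at E14.5 and 8.90 to 9.29 at E16.5. Of the 13 cardiomyocyte markers 4 were higher and 1 lower, with Myl7 at -2.15 and Cox6a2 at 2.17. Leaving out replicate 2 of E11.5 or replicate 1 of E16.5 ended the calls of Cox6a2 (limma adjusted p = 0.053 and 0.091), Tnnc1 (0.13 and 0.23) and Myl3 (0.08 and 0.11), 3 of the 4 higher ones. Tnnc1, Myl3 and the epicardial genes called lower were named after their values were seen. The part of these cells in the results above was not tested.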

How the data were processed

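Cells, RNA and array groups came from the labels' protocols and titles. GenomeStudio 2011.1 is named in the submitters' processing notes. How values were normalized and on which genome build probes were placed is not given in the sources used here. Intensities, as the authors' deposited table holds them, are linear, with a median of 104 and a range of 83.8 to 17358, and their sorted columns differed by at most 2.04, so they are quantile normalized. For the tests, log2 of the deposited intensities was taken. A second table has 36 columns that match no label and was not used, so no detection p was at hand and a background floor was set from the values, as the mode of the background (99.2 intensity units) plus the 0.99 normal quantile of its spread. Of 45281 probes 20001 were above it on at least 3 arrays. The probe table gives 34885 probes 1 symbol, 18 several and 10378 none. The brightest kept probe stood for a gene. Where no array of the dim stage exceeded the floor, the gene was given as "at least N-fold", the bright mean against the floor.

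Limma 3.58.1 in R 4.3.3 fitted 1 mean per stage on 18 arrays with 12 residual degrees of freedom, and was tested on simulated data. The number of arrays limits the precision. Replicate numbers, taken as pairs where all 3 correlations of same-numbered deviations exceeded 0.1, paired E16.5 with E11.5, E12.5 with E11.5 and E16.5 with E15.5, and not the other compared stages; the block was run as an alternative. The members and lists were chosen with earlier results of these data known. Genes outside the 9 were named by a rule: the 3 nearest to each by Pearson's r (5 for the mean course), the 2 largest called differences of each list, and other regulators called with at least a 2-fold difference. Promoter sequences are RefSeq's (GRCm38.p6). Alternatives were the probe filter, normexp, cyclic loess, the mean of probes, array weights, the block, the stages in the fit and each array left out; 2 pairs of arrays were also left out, chosen after seeing the data.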

Additional observations from a re-analysis of the deposited data

Results flagged for a closer look

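For 3 of the 8 measured genes the change from E14.5 to E16.5 (late) differed from that from E11.5 to E13.5 (early) in limma's test of the difference. Klf2 had the larger late change, by 1.85 on the log2 scale (adjusted p = 0.0016), and every array of the last 2 stages lay above every earlier one. Sox7 had the smaller late change, by -1.80 (adjusted p = 0.0057). Sox18 likewise had -1.19 (adjusted p = 0.049), a value at the threshold that several alternatives lost. The E11.5 means of Sox7 and Sox18 lie under the background floor.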

How the results depend on the processing

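The 8 rises from E11.5 to E16.5 kept direction and call in every alternative that tested the gene. A filter on all 18 arrays tests 3 of the 8 genes by its construction, so 3 were called there and by the F test, with 7 of the other regulators in place of 13 and 3 target genes in place of 10. Under it 0 genes were called in each of the first 2 daily steps, 2 in the early window, 1 in the late window and 0 with a smaller late change. For the other changes the cause was not tested. Daily steps moved most. The counts over all genes moved too and are given further below as ranges. A member count below is therefore not matched to the share of all genes in its own fit. It shows how calls depend on the setting and is not read as particular to the members. From E11.5 to E12.5, 3 genes were called, and 5 with array weights, with only the stages compared or without the 2 arrays of low replicate correlation (E13.5 and E15.5 replicate 1). Leaving out single arrays gave 1 to 4. From E12.5 to E13.5, 2 were called, 1 with no filter or the mean of probes, 0 with only the stages compared, 4 with weights and 5 without the low-correlation arrays, and 0 to 3 with single arrays left out. From E13.5 to E14.5, 1 was called, 0 with no filter, the mean of probes or only the stages compared, 2 with weights or without either pair of arrays, and 0 to 2 with single arrays left out. From E14.5 to E15.5, 1 was called, 2 with normexp or the replicate block, 0 with only the stages compared, 7 with weights or without the low-correlation arrays, 6 without the 2 arrays of high cardiomyocyte markers, and 1 to 6 with single arrays left out. From E15.5 to E16.5, 0 were called, 1 with weights, and 0 to 1 with single arrays left out. The late window had 4, and 7 with weights or without the low-correlation arrays. A larger late than early change was called for 1 gene, and for 2 with weights. A smaller one was called for 2, for 1 with no filter, cyclic loess or the mean of probes, 4 with normexp, 5 with weights or without the low-correlation arrays, and 1 to 4 with single arrays left out. Immediate early genes called lower were 0, and 0 to 1 with single arrays left out.

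Directions turned for small differences that were called in neither setting. With weights these were Klf2 (-0.022) and Mef2c (-0.092) from E12.5 to E13.5, Ets1 (-0.25) from E13.5 to E14.5 and Mef2c (-0.064) from E15.5 to E16.5. Without the low-correlation arrays they were Mef2c (-0.085), Ets1 (-0.40), and at the last step Sox18 (-0.030), Fli1 (-0.046), Ets1 (-0.089) and Mef2c (-0.027). Without the high cardiomyocyte arrays the last step gave Sox18 -0.0066, Ets1 -0.041 and Mef2c -0.062. With the mean of probes Mef2c differed by 0.037 in the late window. With single arrays left out the difference ran from -0.085 to 0.25 for Mef2c from E12.5 to E13.5, from -0.40 to 0.26 for Ets1 from E13.5 to E14.5, from -0.0092 to 0.75 for Sox7 and -0.018 to 0.68 for Sox18 from E14.5 to E15.5, and from -0.030 to 0.66 for Sox18, -0.046 to 0.25 for Fli1, -0.089 to 0.24 for Ets1 and -0.027 to 0.16 for Mef2c from E15.5 to E16.5.

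The replicate block changed the members called in the step from E14.5 to E15.5, adding Tal1, and moved the windows' calls of Sox18 and Fli1 as reported and that of Tal1 in the early window (adjusted p = 0.038, from 0.060); it changed no other call of the 8 genes. Over all genes the counts called ranged with single arrays left out from 3150 to 4329 (3755 in the reported fit) for E16.5 against E11.5, from 355 to 896 (602) for the first step, 92 to 2593 (527), 37 to 2375 (495), 17 to 1310 (275) and 6 to 202 (48) for the following steps, from 1249 to 3251 (1876) and 1053 to 2523 (1918) for the windows, and from 1058 to 2402 (1411) for their difference. The other alternatives gave 2841 to 4858, 428 to 1587, 0 to 3627, 25 to 3717, 12 to 3009, 0 to 683, 1069 to 4130, 1414 to 3762 and 1067 to 3397 in the same order. Normexp raised the E16.5 against E11.5 differences of genes near the background, as for Sox7 to 5.56 and Sox17 to 4.15. A slide or scan date block was not run, since the labels and files used here give none.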
